A study of Mus musculus with 16 samples.

Results

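The promoter of Rnf125 and the chromatin it contacts in mouse liver were followed around the day, with the neighbouring promoter of Rnf138 for comparison. The values come from Promoter Capture Hi-C (P-CHi-C), in which chromatin is crosslinked, cut with the enzyme HindIII and ligated, and fragments that carry a gene start (baits) are pulled out together with whatever was ligated to them. Every pair of the 4 deposited lists with an end on the HindIII fragment that holds the Rnf125 start was taken, and every pair with an end on the bait of Rnf138. This gave 32 distinct contacts for Rnf125 and 23 for Rnf138, of 247177 distinct pairs in all. The livers were those of wild-type C57BL/6 males, fed ad libitum under a cycle of 12 h light and 12 h dark. The labels give an age of 8 weeks, which by the methods was the age before 2 weeks in this light cycle. They were taken at ZT0 (lights on), ZT6, ZT12 (lights off) and ZT18, with 3 pools of 2 livers at each timepoint and pool A sequenced on 2 lanes, hence 16 samples. The pools of a timepoint were merged before contacts were called, so there is 1 list per timepoint, no replicate error and no test of any difference between timepoints. Whole liver was used, and the label could not be set against marker genes because the files hold no RNA values.

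Rnf125 encodes a RING-type E3 ubiquitin ligase that marks the viral RNA sensors RIG-I and MDA5 and their adaptor MAVS for degradation and so limits interferon production. Rnf138 encodes a related ligase with the same arrangement of RING and C2HC zinc fingers, known from Wnt signalling and from the repair of DNA double-strand breaks. Promoters can be brought close to distal enhancers and to other promoters by looping of the chromatin fibre, and in liver part of the genome is transcribed in a daily rhythm. Rnf125 is on the study's list of circadian genes, with its acrophase, the time of highest RNA, assigned to ZT0, whereas Rnf138 is not on that list.

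In build mm9 Rnf125 (ENSMUSG00000033107) lies on the plus strand at chr18:21103126-21142349, and its bait, chr18:21100343-21108065, is 7723 bp long and holds no other gene start. Rnf138 (ENSMUSG00000024317) lies downstream in the same orientation at chr18:21159842-21186724, with a bait of 16725 bp at chr18:21152746-21169470. The baits were not listed as a pair with each other, nor was either listed with the HindIII fragments that adjoin it. All 32 contacts of Rnf125 and all 23 of Rnf138 were on chromosome 18.

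The Rnf125 promoter had 24 contacts at ZT0, 20 (ZT6), 14 (ZT12) and 22 (ZT18). The Rnf138 promoter had 7 contacts at ZT0, 11 (ZT6), 13 (ZT12) and 12 (ZT18). At the minimum score of the lists, Rnf125 thus had most contacts at ZT0, where Rnf138 had fewest. The ZT0 maximum of Rnf125 did not hold in other settings: ZT18 was highest with a score of at least 7 (14, against 13 at ZT0) or 10 (4 against 3), and with touching fragments merged (12 against 9). The low number of Rnf125 at ZT12 held at both higher minimums, while Rnf138 with a score of at least 7 had 1 contact at ZT0, ZT6 and ZT18 alike. The number for Rnf125 exceeded that of 89.7% of the 18165 baits at ZT0 and of 77.2% at ZT12, and that for Rnf138 exceeded 59.5% and 75.5%. The median bait had 5 contacts at each timepoint. The 18165 are baits with a listed pair at some timepoint, so captured fragments without any listed pair are left out of these ranks and medians.

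The ratio of contacts at ZT0 to ZT12 was 1.71 for Rnf125, with a 95% exact interval of 0.852 to 3.59. For Rnf138 it was 0.538, with an interval of 0.182 to 1.45. These intervals cover counting error only, and both include 1. They take contacts as independent and the counts of ZT0 and ZT12 as separate. For Rnf125, 12 fragments were in both counts, and for Rnf138 4, so the intervals do not measure the spread of the ratio. A ratio of at least 1.5 was seen at 7.87% of the 6299 baits with at least 10 contacts at ZT0 or ZT12, and the reverse, as for Rnf138, at 12.6%. The median ratio over these baits was 0.960. A bait with most contacts at ZT0 and fewest at ZT12, as for Rnf125 at this minimum score, made up 4.34% of those with at least 10 contacts at some timepoint, and the opposite order, as for Rnf138, 7.79%. When contacted fragments that touch each other were merged, Rnf125 had 9 regions at ZT0, 11 (ZT6), 9 (ZT12) and 12 (ZT18), so its ratio became 1.00. The contacted length was 96.0 kb at ZT0, 59.1 kb (ZT6), 36.6 kb (ZT12) and 75.5 kb (ZT18). A single fragment of 23813 bp within Gm16090, listed at ZT0 alone with a score of 5.92, supplied part of this, and without it the length at ZT0 was 72.2 kb, below that at ZT18. The labels and a summary by the authors assign 3 of the lists differently, and in the order of the summary the ratio was 1.09. The list with 14 contacts of Rnf125 would then be that of ZT6, and the one with 22 that of ZT12, and the same exchange holds for every ZT12 value given here.

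**Figure D1:**
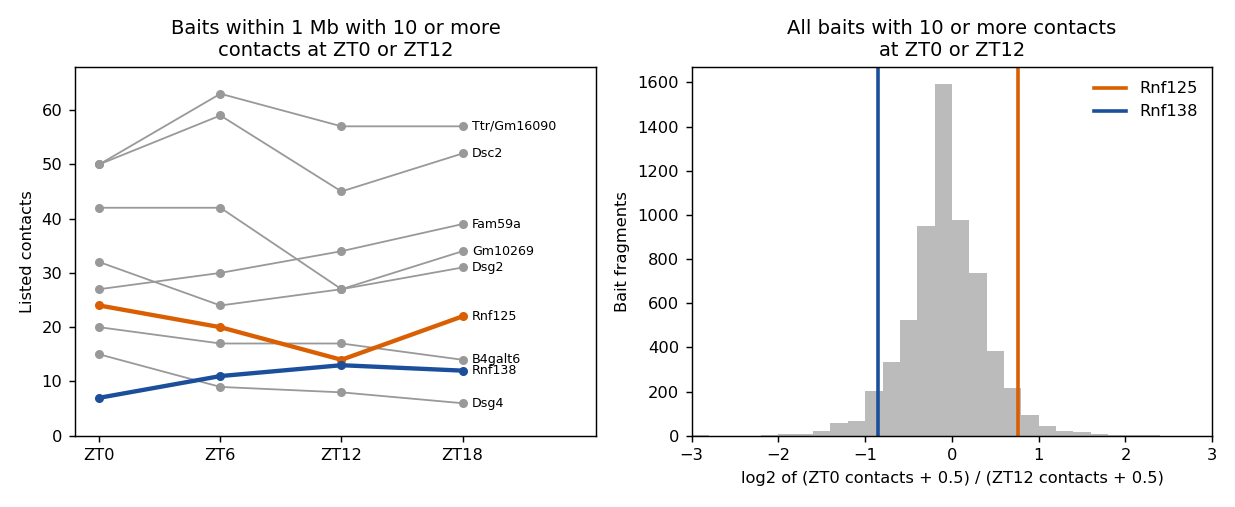
Left, listed contacts (y axis) at each timepoint (x axis) for the 9 baits within 1 Mb of Rnf125 with at least 10 contacts at ZT0 or ZT12, 1 line per bait, with Rnf125 in orange and Rnf138 in blue. Right, number of baits (y axis) by the log2 ratio of contacts at ZT0 to ZT12 after 0.5 was added to each number (x axis), for all 6299 such baits, where Rnf125 stands on the right flank and Rnf138 on the left.

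Each listed pair carries a CHiCAGO score, which rises with the excess of reads over the number expected from distance and noise, after p-values are weighted by distance. Only pairs with a score of at least 5 are listed, so a missing pair has no value and is not a zero. The scores of Rnf125 also went down towards ZT12: their median was 7.76 at ZT0, 6.25 (ZT6), 5.97 (ZT12) and 7.60 (ZT18). The highest score was 17.0 at ZT0, 12.3 (ZT6), 10.1 (ZT12) and 16.6 (ZT18). Scores under 6, close to the minimum of the lists, were found for 7 of the 14 contacts at ZT12 and 8 of 20 at ZT6. At ZT0 they were found for 5 of 24, and at ZT18 for 4 of 22. The share under 6 over all pairs was not counted, but the median score of all pairs was 6.97 at ZT0 and 7.01 at ZT12. The lowest scores, 5.01 and 5.03, were both found at ZT12. The scores of Rnf138 were lower and went the other way between ZT0 and ZT12, with medians of 5.56 at ZT0, 6.18 (ZT6), 6.71 (ZT12) and 5.77 (ZT18). None of the 23 contacts of Rnf138 reached a score of 10, while 6 of the 32 of Rnf125 did.

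Contact by contact, 12 fragments were listed for Rnf125 at both ZT0 and ZT12, and 9 of them scored higher at ZT0, with a median difference of 1.48. Over all pairs listed at both, 46.9% scored higher at ZT0 and the median difference was -0.14. Of the 24 contacts at ZT0, 12 were absent at ZT12 (29.3% of all ZT0 pairs), whereas 2 of the 14 at ZT12 were absent at ZT0 (31.7% of all ZT12 pairs). The ZT12 contacts of Rnf125 were therefore largely a subset of its ZT0 contacts. The comparison of ZT18 with ZT12, which shares the ZT12 list, gave 9 contacts listed at both, of which 8 scored higher at ZT18 (49.8% of all pairs), and 13 of 22 contacts at ZT18 were absent at ZT12 (28.5% of all ZT18 pairs). For Rnf138, 3 of the 4 contacts listed at both ZT0 and ZT12 scored higher at ZT12, and 9 of its 13 contacts at ZT12 were absent at ZT0.

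Of the 32 contacts of Rnf125, 8 were listed at all 4 timepoints, 10 at 3, 4 at 2 and 10 at a single one. The share at all 4 was 25.0% (95% Wilson interval 13.3 to 42.1%), against 32.5% of all pairs, and the share at 1 timepoint was 31.3%, against 35.2%. Rnf138 had 3 contacts at all 4 timepoints (13.04%, 4.54 to 32.1%) and 11 at 1 timepoint (47.8%). If another contact within 10 kb was accepted as the same contact, the share at all 4 timepoints was 78.1% for Rnf125 and 43.5% for Rnf138, against 68.5% of the contacts of all baits counted in the same way.

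Most contacts of Rnf125 lay upstream of the gene, 28 of 32, and 21 of the 32 were 150 kb or more away (53.3% of all pairs within a chromosome). Their median distance was 281 kb and the range 10.4 to 890 kb. When contacts with gaps of up to 10 kb were joined, a grouping chosen after the data were seen, they fell into 6 zones. From far upstream to downstream these were the start of Dsc2, the start of Dsg2, the stretch from the end of Dsg2 over Gm16090 to Ttr, an intron of Trappc8, the intergenic stretch just upstream of Rnf125, and the body of Rnf125 itself. There were 3 zones with over 2 contacts, and these held 28 of the 32.

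**Figure D2:**
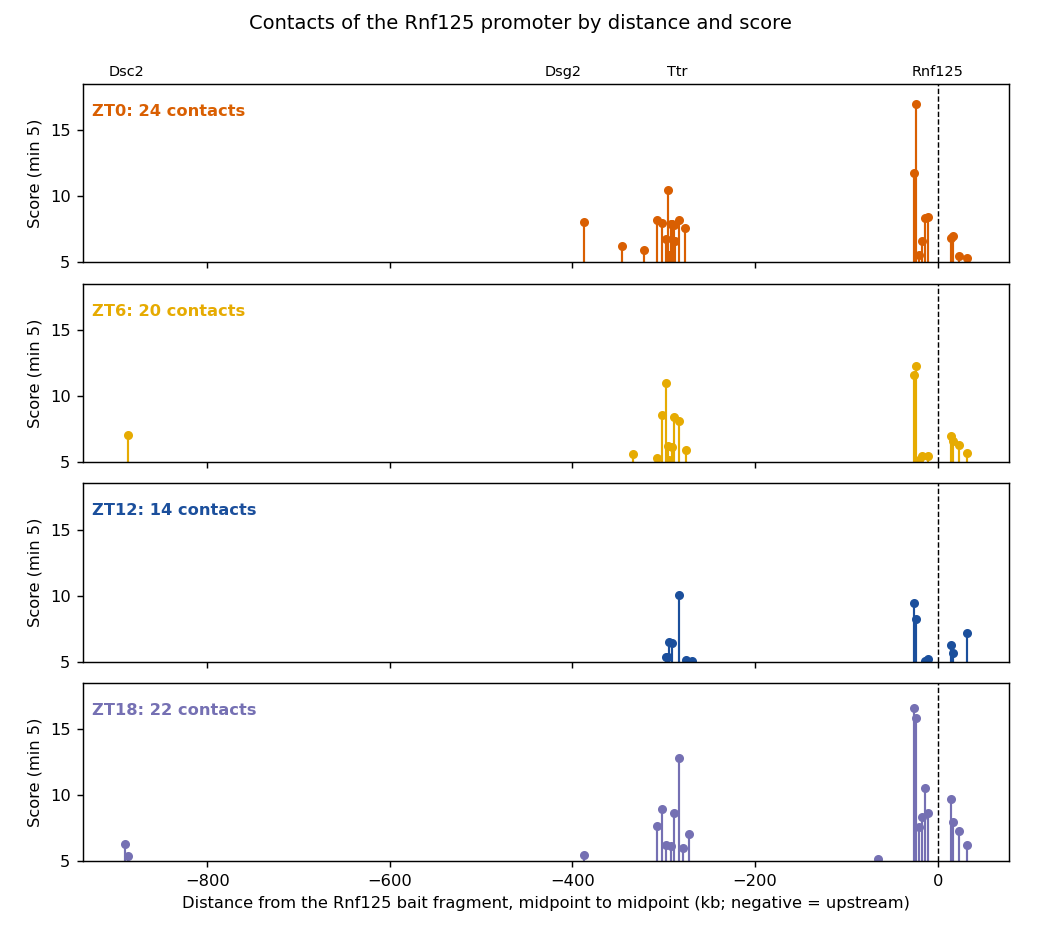
Contacts of the Rnf125 promoter at ZT0, ZT6, ZT12 and ZT18 (panels from top to bottom), each point a contacted HindIII fragment, with its distance from the bait in kb on the x axis and its score on the y axis, which starts at the minimum of the lists, 5. The same groups of fragments around Ttr, just upstream and inside Rnf125 appear in all 4 panels, with 24, 20, 14 and 22 points in turn and the lowest peaks at ZT12.

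The largest zone spanned 81.1 kb at chr18:20754356-20835431, from 346 to 269 kb upstream of the bait, and 18 of its 26 HindIII fragments were contacted. It covers the last exons of Dsg2, which encodes a desmosomal cadherin of cell junctions, the noncoding transcript Gm16090, and Ttr, which encodes transthyretin, a carrier of thyroid hormone and retinol that the liver secretes. Rnf125 had 13 contacts there at ZT0, 10 (ZT6), 7 (ZT12) and 8 (ZT18). The summed score was 97.5 at ZT0, 70.4 (ZT6), 43.8 (ZT12) and 63.5 (ZT18). A sum runs over listed contacts only and falls with their number, so it is not separate from that number. The zone thus supplied 6 of the 10 contacts by which ZT0 exceeded ZT12.

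Within it the fragment with the starts of both Ttr and Gm16090, chr18:20816447-20825090 and itself a bait, is the promoter-promoter contact of Rnf125 that was present at all 4 timepoints. Its score was 8.24 at ZT0, 8.14 (ZT6), 10.1 (ZT12) and 12.8 (ZT18). It was the top-scoring contact of Rnf125 at ZT12 and, unlike most others, scored lower at ZT0 than at ZT12. Of the fragments to its left within Gm16090, chr18:20808840-20810920 also scored lower at ZT0 (5.60) and ZT6 (5.15) than at ZT12 (6.48) and was absent at ZT18. Others were lower at ZT12 than at ZT0, or absent at ZT12. The fragment chr18:20807940-20808839 scored 10.5 at ZT0, 6.22 at ZT6 and 5.37 at ZT12 and was absent at ZT18. The adjoining fragment chr18:20805145-20807939 scored 6.81, 10.98, 5.32 and 6.23 from ZT0 to ZT18, with its peak at ZT6. The next one, chr18:20798843-20805144, scored 7.97, 8.53 and 8.93 at ZT0, ZT6 and ZT18 and was absent at ZT12. Closer to Ttr, chr18:20814150-20816011, had the same pattern, with 7.87, 8.39 and 8.68 at those timepoints. The fragment chr18:20813294-20814149 scored 7.90, 6.14 and 6.44 at ZT0, ZT6 and ZT12, so that ZT12 exceeded ZT6, and was absent at ZT18. To the right of the Ttr bait, chr18:20828016-20829408 (5.09) and chr18:20834551-20835431 (5.03) were listed at ZT12 but not at ZT0. Only the Ttr bait and chr18:20805145-20807939 were listed throughout in this zone.

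The zone just upstream ran from 26.1 to 10.4 kb before the bait, at chr18:21076683-21096617, in the intergenic stretch between the starts of Trappc8 and Rnf125, which point away from each other. All 6 of its HindIII fragments were contacted. Numbers were 6 at ZT0, 5 (ZT6), 4 (ZT12) and 6 (ZT18), and summed scores 57.8, 39.9, 27.9 and 67.6. It held the contacts with the highest scores of all. The fragment chr18:21079594-21081251 scored 17.0 at ZT0, 12.3 (ZT6), 8.22 (ZT12) and 15.9 (ZT18). Its left neighbour, chr18:21076683-21079593, scored 11.8 at ZT0, 11.6 (ZT6), 9.43 (ZT12) and 16.6 (ZT18). Both were lowest at ZT12 without leaving the list. Nearer the gene, chr18:21091079-21096617 scored 8.47, 5.44, 5.22 and 8.62 from ZT0 to ZT18. The fragment beside it, chr18:21088577-21091078, scored 8.35 at ZT0, 5.01 at ZT12 and 10.6 at ZT18 and was absent at ZT6. The remaining pair of fragments in this zone, chr18:21081252-21086201 and chr18:21086202-21088576, were listed at ZT0, ZT6 and ZT18 only, with scores from 5.18 to 8.35. In this zone 5 of the 6 fragments were thus lowest or absent at ZT12, and the sixth was absent at ZT6 and lowest among its listed scores at ZT12.

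Inside Rnf125, 14.7 to 31.8 kb downstream of the bait, 4 of 7 fragments of the zone chr18:21118040-21137060 were contacted. There were 4 at ZT0, 4 (ZT6), 3 (ZT12) and 4 (ZT18), and the summed scores were 24.7, 25.6, 19.1 and 31.2. The intronic fragment chr18:21118040-21119679 scored 6.84 at ZT0, 7.0 (ZT6), 6.27 (ZT12) and 9.70 (ZT18). The next fragment, chr18:21119680-21122346, which overlaps an exon of Rnf125, scored 6.97, 6.62, 5.66 and 7.93. The farthest, chr18:21134933-21137060, also over an exon, scored 5.32 at ZT0, 5.70 (ZT6), 7.13 (ZT12) and 6.25 (ZT18). It was, beside the Ttr bait, a contact listed throughout that scored higher at ZT12 than at ZT0, against 6 listed throughout that scored higher at ZT0.

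The other contacts were few, and some scored above the median of Rnf125 at their timepoint. The bait at the start of Dsg2, chr18:20715098-20719331 and 387 kb upstream, scored 8.03 at ZT0 and 5.48 at ZT18. The bait at the start of Dsc2, another desmosomal cadherin gene and also on the study's circadian list (acrophase ZT6), lies 887 kb upstream at chr18:20216128-20219247 and scored 7.04 at ZT6 and 5.40 at ZT18. Its neighbour fragment inside Dsc2 was listed at ZT18 with 6.27. A fragment in an intron of Trappc8, which encodes a subunit of a vesicle tethering complex, scored 5.14 at ZT18. None of these was listed at ZT12. Baits made up 3 of the 32 contacted fragments (9.38%, 3.24 to 24.2%). Of all pairs, 15.4% had baits at both ends, but there each such pair counts once. Counted from each bait, as for Rnf125, the share over all baits would be higher. The 15.4% is therefore not a like measure for the share of Rnf125.

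**Figure D3:**
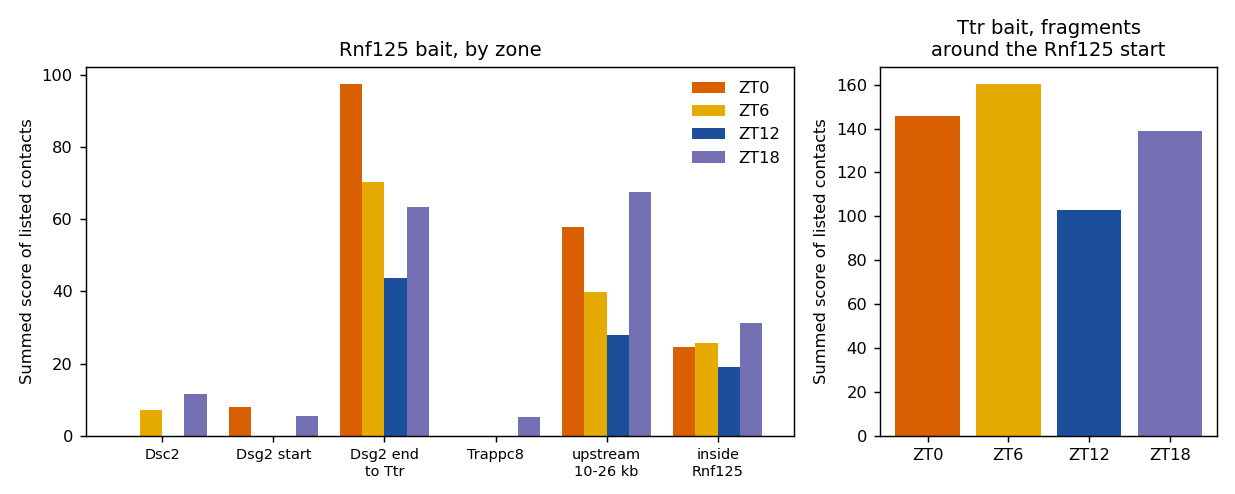
Left, summed score (y axis) of the contacts of the Rnf125 promoter in each of the 6 zones (x axis), with 1 bar per timepoint and an empty place where no contact was listed. Right, summed score of the contacts of the Ttr bait with the fragments around the Rnf125 start, 1 bar per timepoint. The bars for ZT12 are lowest in the zones around Ttr, upstream and inside Rnf125, and in the right panel. Each sum depends on how many contacts were listed.

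The Ttr bait captures the same stretches from the opposite end, with its own probes, though in the same libraries. Of its 81 distinct contacts, 18 lay on or around the Rnf125 start, from chr18:21076683 to chr18:21137060, and 9 of these were listed at all 4 timepoints. The 18 include the pair of the Ttr and Rnf125 baits, which is also counted among the contacts of Rnf125. The Ttr bait had 14 contacts there at ZT0, 16 (ZT6), 13 (ZT12) and 15 (ZT18). Their summed score was 145.6 at ZT0, 160.2 (ZT6), 102.9 (ZT12) and 138.9 (ZT18), so that ZT12 was lowest from this end too, although ZT6 and not ZT0 was highest. In the zone just upstream of Rnf125 the Ttr bait had 6, 6, 4 and 6 contacts with summed scores of 69.4, 68.2, 37.3 and 61.5. Inside Rnf125 the order differed, with 4, 7, 6 and 5 contacts and summed scores of 38.7, 64.2, 44.2 and 43.7, so that ZT0 and not ZT12 was lowest there. In its contacts as a whole the Ttr bait had 50 at ZT0, 63 (ZT6), 57 (ZT12) and 57 (ZT18), and did not have fewest at ZT12. The fragment that adjoins the Rnf125 bait upstream, chr18:21096618-21100342, which was not listed for Rnf125, scored 15.6 at ZT0, 12.5 at ZT6 and 7.90 at ZT18 with Ttr and was absent at ZT12.

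Of the fragments contacted by Rnf125, 25 (78.1%) were also contacted by the Ttr bait, which is 30.9% of the contacts of Ttr. The Dsc2 bait shared 14 (43.8% of those of Rnf125, 18.2% of its own), the B4galt6 bait 9 (28.1% and 32.1%), a U1 bait inside Trappc8 8 (25.0% and 44.4%) and the Dsg2 bait 6 (18.8% and 10.3%). B4galt6 encodes a galactosyltransferase of glycolipid synthesis. The B4galt6 bait, which lies between Ttr and Rnf125, shared fragments in the Ttr zone and had no contact in the zones upstream of and inside Rnf125. In the zone just upstream the Dsc2 bait had 0, 0, 2 and 0 contacts from ZT0 to ZT18, so at ZT12 only, and the Dsg2 bait 0, 1, 0 and 1. Inside Rnf125 they had 0, 0, 0 and 2 (Dsc2) and 0, 1, 1 and 1 (Dsg2). The low at ZT12 seen from the Ttr bait was thus not seen from the Dsc2 bait in the upstream zone.

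The contacts of Rnf138 scored lower and were spread over 8 zones, joined in the same way. They were placed on both sides of the promoter, 13 upstream and 10 downstream, at a median distance of 129 kb and at most 383 kb. Highest scores under 6 were found for 12 of the 23, compared with 6 of 32 for Rnf125.

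**Figure D4:**
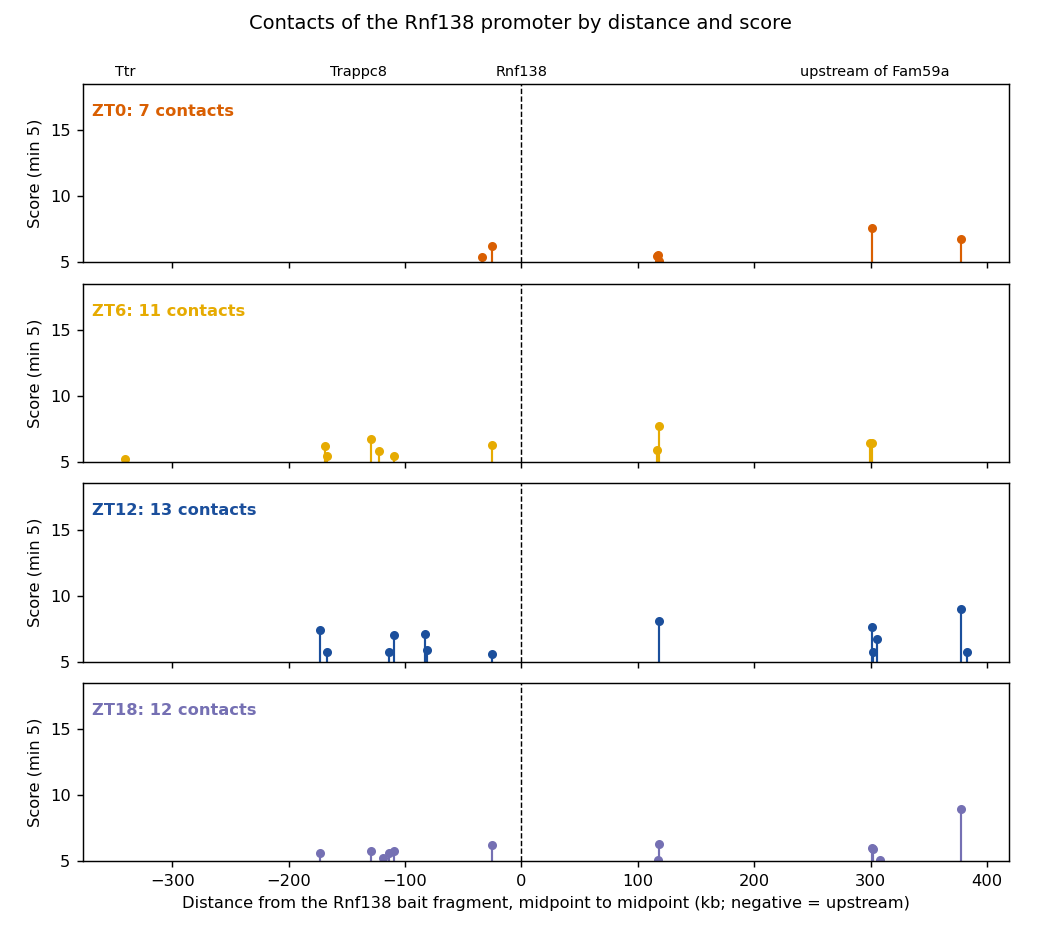
Contacts of the Rnf138 promoter at ZT0, ZT6, ZT12 and ZT18 (panels from top to bottom), drawn as for Rnf125, with distance from its bait in kb on the x axis and score from 5 upwards on the y axis. Points lie on both sides of the promoter and stay under a score of 10, and the upstream side is nearly empty at ZT0, where 7 contacts were listed.

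Upstream of Rnf138, no contact inside Trappc8 was listed at ZT0. At chr18:21029691-21052438, 129 to 110 kb away, there were 0 contacts at ZT0, 3 (ZT6), 2 (ZT12) and 4 (ZT18). At chr18:20985779-20994929, numbers were 0, 2, 2 and 1. The 2 highest-scoring fragments of Rnf125, at chr18:21076683-21081251, were contacted by Rnf138 at ZT12 only, with scores of 7.08 and 5.90, the timepoint at which their scores with Rnf125 were lowest. The Ttr bait was listed for Rnf138 at ZT6 only, with 5.21.

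Downstream, Rnf138 had contacts at 3 places. At 116 to 118 kb, between Mep1b, which encodes a subunit of the metalloprotease meprin, and Fam59a, which encodes an adaptor of growth factor signalling, the fragment chr18:21278674-21279185 scored 5.09 at ZT0, 7.71 (ZT6), 8.06 (ZT12) and 6.32 (ZT18). At about 301 kb, just upstream of the start of Fam59a, chr18:21461621-21462611 scored 7.59, 6.47, 7.61 and 5.96. Both were listed throughout, and the second changed by less than 2 score units. The farthest place held a bait with a U6 gene start, chr18:21537171-21539665, 377 kb away, with 6.76 at ZT0, 9.0 at ZT12 and 8.98 at ZT18. It also held the farthest contact, chr18:21542913-21544590 at 383 kb, listed at ZT12 only with 5.69.

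Rnf125 and Rnf138 shared 6 contacted fragments, which is 18.8% of those of Rnf125 and 26.1% of those of Rnf138. With fragments within 10 kb accepted, 24 of the 32 fragments of Rnf125 had a counterpart, and 10 of those of Rnf138 (43.5%) had one in return. Around Ttr the only counterpart was the Ttr bait, listed for Rnf138 at ZT6 alone. The fragment chr18:21134933-21137060 inside Rnf125 was listed for both at all 4 timepoints. With Rnf138 it scored 6.27 at ZT0, 6.26 (ZT6), 5.57 (ZT12) and 6.22 (ZT18), so that at ZT12 it was lowest with Rnf138 and highest, at 7.13, with Rnf125.

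The order ZT0 over ZT12 was not shared by the whole locus. Of 17 baits within 1 Mb, 9 had at least 10 contacts at ZT0 or ZT12, with Rnf125 and Rnf138 themselves among them. Of these, 3 had at least 1.5 times as many at ZT0 (7.87% of all such baits). They were Rnf125, Dsg4 (15, 9, 8 and 6 from ZT0 to ZT18) and Gm10269, which lies within B4galt6 (42, 42, 27 and 34). Rnf138 alone had the reverse (12.6% of all such baits). Dsg2 (32, 24, 27 and 31), Dsc2 (50, 59, 45 and 52) and B4galt6 (20, 17, 17 and 14) also had more contacts at ZT0 than at ZT12, by less than 1.5-fold. Fewer at ZT0 than at ZT12 were found for Ttr (50, 63, 57 and 57) and Fam59a, which went from 27 at ZT0 to 34 at ZT12 and 39 at ZT18. Among baits with too few contacts for this limit, the U1 bait inside Trappc8 had 8, 10, 2 and 12, and Dsc3 6, 5, 3 and 4. Dsc1 and Trappc8 also had more at ZT0 than at ZT12, and Dsg1c, Dsg3, Mep1b and U6 had equal numbers. In the order of the authors' summary, the list labelled ZT18 is read as ZT12, and 10 of the 17 baits had enough contacts. Dsg4 alone then exceeded the 1.5-fold limit at ZT0, and Rnf138 and the U1 bait did so at ZT12. Shares over all baits were not counted in that order.

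The promoters of the other genes of the sensing pathway in which RNF125 acts were listed in the same way. Of 14 such genes, 13 had a bait at their start and 8 of these had at least 10 contacts at ZT0 or ZT12. None of the 8 had at least 1.5 times as many at ZT0 (7.87% of all such baits), and 4 had at least 1.5 times as many at ZT12 (12.6%). These were Dhx58, which encodes the regulatory RIG-I-like receptor LGP2 (10, 14, 16 and 18 from ZT0 to ZT18), Mavs, the adaptor that RNF125 modifies (5, 10, 10 and 10), and Irf3 and Irf7, the transcription factors that switch on interferon genes (8, 5, 13 and 10 for Irf3, and 15, 13, 30 and 16 for Irf7). The RIG-I gene Ddx58 had 15 contacts at ZT0, 16 (ZT6), 13 (ZT12) and 25 (ZT18). Of the 8, Rnf135, a ligase that activates RIG-I, came nearest to Rnf125, with 18, 19, 13 and 17. Ddx58, Rnf135, Ikbke (19, 16, 16 and 17) and Ube2d3 (40, 32, 37 and 32), the other 4 of the 8, had more contacts at ZT0 than at ZT12, by less than 1.5-fold. Isg15, with too few contacts for the limit, had 8, 5, 5 and 2. In the order of the authors' summary 3 of 8 had the call at ZT12, namely Dhx58, Mavs and Ddx58, so that Irf3 and Irf7 lost it. None had it at ZT0, and here too the shares over all baits were not counted. By the labels, the median over the 13 was 8 contacts at ZT0, 10 (ZT6), 13 (ZT12) and 10 (ZT18).

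The relatives of RNF125 with the same zinc finger arrangement had few contacts, with 2, 3, 1 and 1 for Rnf114 and 3, 2, 2 and 3 for Rnf166. Of 6 genes whose products work with RNF138, 4 had a bait at their start, and Tcf7l2, a Wnt transcription factor, was the one with at least 10 contacts (53, 54, 58 and 46). It passed the 1.5-fold limit in neither direction.

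Over all baits, the numbers most like those of Rnf125, by the smallest sum of absolute differences over the 4 timepoints, were found for Ticam2 (22, 20, 13 and 23 from ZT0 to ZT18, a sum of 4), Traf7 (24, 21, 16 and 24, a sum of 5) and Canx (23, 21, 16 and 23, a sum of 5). The likeness is in contact numbers alone.

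The contacted fragments were also compared with the other HindIII fragments of the same stretch for letters of clock-related motifs, on both strands. The 32 fragments contacted by Rnf125 had a median length of 2438 bp and a GC content of 43.3%, against 2011 bp and 40.1% for the 285 others. All listed fragments of chromosome 18 had 2478 bp and 43.74%, close to the contacted ones, so this difference is not particular to Rnf125. The E-box CACGTG, bound by CLOCK and BMAL1, occurred 1.12 times per 10 kb in contacted and 0.912 times in other fragments, and 1.37 times in all listed fragments of chromosome 18. For the core of the ROR element, TAGGTCA, the values were 1.03, 1.06 and 1.065 in the same order. For the D-box TTATGTAA they were 0.601, 0.675 and 0.4467. The window from 250 bases before to 50 after the start of Rnf125 held 1 E-box match, as did 7.78% of 22380 gene starts with at least 1, and no match of the other motifs. The Rnf138 window held none of the 3. These are matches of letters only.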

How the data were processed

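P-CHi-C libraries were mapped to mm9 with HiCUP, the authors merged the pools of each timepoint, and interactions were called with CHiCAGO. The deposited values are scores, 1 per fragment pair and timepoint, with a minimum of 5. The lists hold 146262 (ZT0), 154775 (ZT6), 151529 (ZT12) and 151347 (ZT18) pairs, without read counts. The study's own read totals were not used here. Timepoints were taken from the sample labels.

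The lists were handled in python 3.11.15 (pandas 2.3.3, numpy 2.4.6), with the direction of a pair ignored. All 4013 listed fragments of chromosome 18 were identical to HindIII fragments of the mm9 reference. Genes came from GENCODE vM1. Distances are between fragment midpoints. Intervals (scipy 1.17.1, 95%, Wilson for shares and exact for ratios) cover counting error only, and contacts of a bait are not independent. Figures were drawn with matplotlib 3.10.9. Counting was tested on simulated data.

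Genes named are Rnf125, Rnf138, genes at contacted fragments, the 5 baits sharing most fragments with Rnf125, the 3 most alike in numbers, and 3 gene lists; neighbouring baits within 1 Mb were added after their values were seen. Members and lists were chosen with earlier results of these data known. Circadian genes and acrophases came from the study's list. No sequence of these regions is reported here. Alternatives were other score minimums, equal list lengths, merged fragments, a 10 kb tolerance, gap distances, scaling by list totals, and another order of the lists.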

Additional observations from a re-analysis of the deposited data

How the results depend on the processing

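The contact numbers of Rnf125 at ZT0, ZT6, ZT12 and ZT18 were 13, 8, 4 and 14 with a score of at least 7, and 3, 3, 1 and 4 with a score of at least 10. With touching fragments merged they were 9, 11, 9 and 12. Outside the zone that holds Ttr, an alternative added after the data were seen, they were 11, 10, 7 and 14. The numbers for Rnf138 were 1, 1, 6 and 1 with a score of at least 7, and 0 at all 4 timepoints with at least 10. By the labels, ZT12 was lowest for Rnf125 in each of these settings, tied with ZT0 after merging, whereas the highest number was at ZT18 and not ZT0 in all 4. With equal list lengths the numbers of Rnf125 were 24, 20, 12 and 22, so that ZT0 stayed highest.

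The ratio of ZT0 to ZT12 for Rnf125 was 1.78 scaled by list totals, 3.25 and 3.00 with a score of at least 7 and 10, and, in alternatives added later, 1.57 outside the Ttr zone, 1.43 under 150 kb, 2.00 at 150 kb or more and 1.00 with touching fragments merged. Where the lists labelled ZT6, ZT12 and ZT18 were read as ZT18, ZT6 and ZT12, as in a summary by the authors, the ratio was 1.09 and the list with fewest contacts of Rnf125 was that of ZT6. This order, the limit to under 150 kb and merging each ended the 1.5-fold call. For Rnf138 the ratio was 0.558 scaled by totals, 0.583 in the other order and 0.167 with a score of at least 7. The cause was not tested.

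The share of contacts listed at all 4 timepoints was 0.0% for Rnf125 with a score of at least 10, and 78.1% with an end within 10 kb accepted. For Rnf138 it was 0.0% with a score of at least 7 and 43.5% with the 10 kb tolerance, and had no value at a score of 10. With that tolerance 24 fragments of Rnf125 had a counterpart among those of Rnf138, and 10 of those of Rnf138 (43.5%) had one in return. Median distances and bait shares stayed within their intervals.

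No paired analysis was possible because each timepoint has a single list from merged pools, and no replicate was left out for the same reason. Absence from a list is not a low number of reads, and read depth was not analysed here.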
